A study of Rattus norvegicus with 12 samples.

Results

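The genes described here make citrate, carry it out of the mitochondrion or pass it through the citric acid cycle. They were chosen by name for those roles: Pdha1, Got2, Cs, Slc25a1, Aco1, Idh3a, Ogdh, Sdhb and Mdh2. All 9 were measured, by 12 probe sets, among 14506 genes with a probe set of their own. Where a gene had several probe sets, the set with the highest mean over the 12 arrays was used.

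Ventral prostates of adult male Wistar rats, 90 days old, were profiled on Affymetrix arrays 3 days after treatment, with 3 arrays in each of 4 groups. The series looks at procedures that deprive the gland of androgen. Castrated rats had both testes removed while anaesthetized with ketamine at 150 mg/kg plus xylazine at 10 mg/kg. Estradiol rats kept their testes and were given 17β-estradiol once, at 25 mg/kg, diluted in corn oil. Combined rats had both, and control rats had the vehicle alone and kept their testes. Anaesthesia is listed only for the groups that had surgery, and the sources used here do not say whether castrated rats received vehicle. All rats were killed with an overdose of anaesthetic. The design names 48 rats, without saying here which of them, singly or pooled, gave each array, so the p-values below measure the spread between samples, which may be technical.

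Most cells oxidize the citrate they make, whereas the secretory epithelium of the prostate releases much of it into the seminal fluid. Citrate synthase joins acetyl-CoA, supplied from pyruvate by the pyruvate dehydrogenase complex, to oxaloacetate, for which aspartate is a known source in this gland. Androgens are known to stimulate citrate production in the rat ventral prostate. The arrays measured mRNA, not citrate or enzyme activity. In whole tissue, fewer cells of a type and less RNA per cell cannot be told apart.

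Relative to control, the clearest pattern among these genes lay in enzymes at the entry to the cycle and within it. Pdha1, Ogdh and Mdh2 were lower on all 9 treated arrays than on any control array. Of all genes tested, 7.27% did the same, so 3 of 9 genes is a larger share than that background, which is a description and not a test. No citrate gene lay above control on all 9 treated arrays, against 4.63% of all genes. Adjusted over all 14506 genes, only the fall of Ogdh after estradiol passed (adjusted p = 0.0365, limma), and it did not pass in several refits given below. The plot of levels on each array shows the values gene by gene.

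**Figure D1:**
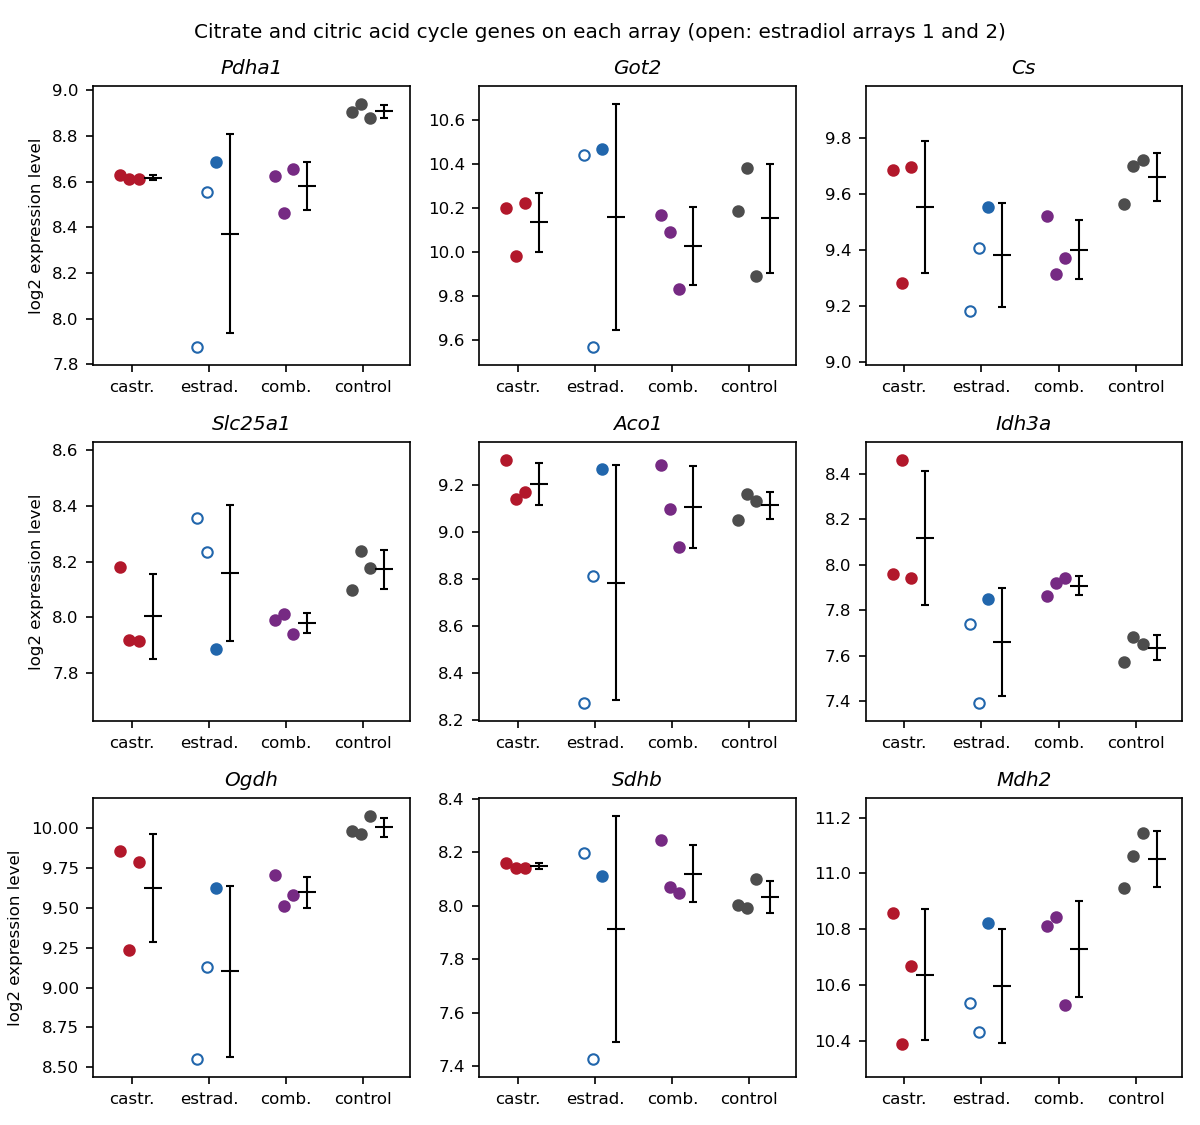
Log2 expression level (vertical axis, a separate scale for each gene) of the 9 genes on each array of the castrated, estradiol, combined and control groups, with the group mean and SD (n = 3) beside the points. Open circles are estradiol arrays 1 and 2. In the panels of Pdha1, Ogdh and Mdh2 every treated point lies below every control point, and in the panel of Ogdh the lowest point, 8.55, is estradiol array 1.

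Estradiol arrays 1 and 2 stood apart from the other 10 arrays and bear on every estradiol value. Their log2 values had an SD over genes of 1.93 to 2.01, against 2.24 to 2.30 on the other 10. The 10% of genes with the lowest levels averaged 3.34 to 3.41, against 2.69 to 2.84, and the 10% with the highest 9.27 to 9.82, against 10.0 to 10.1. Estradiol differences of each citrate gene are therefore also given without them, which leaves estradiol array 3 as the only estradiol array. That array had its own difference: the summed level of the 5 measured markers, of 6 listed, for seminal vesicle and other glands was 9.62 on the log2 scale, against 6.27 to 6.66 on estradiol arrays 1 and 2 and 5.88 to 7.54 on the other groups' arrays. Semg1 set that sum, at 9.46 against at most 3.43 on every other array. Svs3a, Svs4, Svs5 and Svs6, at 2.45, 5.91, 3.54 and 2.43, were not above the range of the other arrays. Msmb, a prostate secretory marker, was also apart on estradiol array 3, at 8.47 against 3.54 to 4.18 on the other arrays. The part of these features of the estradiol arrays in the results was not tested.

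The promoters of the 3 genes below control on every treated array are shown to let their letters be compared. Each run holds 250 bases before and 50 bases after the start site used in a RefSeq promoter table for the rat assembly GRCr8, 5′ to 3′ on the gene's strand. For Ogdh that site lies downstream of the first base of the gene in RefSeq, chr14:85363949, and positions below are counted from the site used. They come from chr14:85363781-85364080 (plus strand) for Ogdh, chr12:26543792-26544091 (minus strand) for Mdh2 and chrX:38508908-38509207 (plus strand) for Pdha1. Capitals mark matches to the motifs searched.
Ogdh: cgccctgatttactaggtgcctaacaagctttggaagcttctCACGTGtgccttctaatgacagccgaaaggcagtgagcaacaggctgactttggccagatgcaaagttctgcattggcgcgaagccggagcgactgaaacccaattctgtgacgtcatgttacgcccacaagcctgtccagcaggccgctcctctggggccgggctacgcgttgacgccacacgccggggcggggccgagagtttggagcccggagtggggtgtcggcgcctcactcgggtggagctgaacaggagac
Mdh2: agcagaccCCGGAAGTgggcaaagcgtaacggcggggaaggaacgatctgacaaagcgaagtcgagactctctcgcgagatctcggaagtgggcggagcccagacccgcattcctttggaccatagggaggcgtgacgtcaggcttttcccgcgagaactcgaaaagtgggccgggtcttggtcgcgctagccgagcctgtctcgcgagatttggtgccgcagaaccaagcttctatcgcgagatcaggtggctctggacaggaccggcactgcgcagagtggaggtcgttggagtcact
Pdha1: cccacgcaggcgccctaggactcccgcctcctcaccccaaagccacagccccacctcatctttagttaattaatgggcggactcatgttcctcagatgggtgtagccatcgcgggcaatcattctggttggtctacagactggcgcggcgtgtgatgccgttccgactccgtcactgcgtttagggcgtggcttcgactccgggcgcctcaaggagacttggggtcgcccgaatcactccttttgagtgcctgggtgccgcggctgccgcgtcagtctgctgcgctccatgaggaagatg

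The motifs, searched on both strands, were the E-box CACGTG, the GABPA site CCGGAAGT, the NRF1 core CGCATGCG, the ERR site TCAAGGTCA, the androgen and glucocorticoid half-site AGAACA and the SREBP site TCACNCCAC. The Ogdh window held an E-box at positions -208 to -203 from the start site, a motif present in 6.42% of 33469 promoters of that length. The Mdh2 window held a GABPA site at -242 to -235, present in 3.81% of promoters, and none of these letters were in the Pdha1 window. Among the 8 genes with a promoter in the table (all but Idh3a), the one further match was an AGAACA on the minus strand of Slc25a1, at -184 to -179, a motif found in 20.7% of promoters. NRF1, ERR and SREBP matches occurred in 1.66%, 0.433% and 1.12% of promoters and in 0 of the 8. What the 8 promoters shared was composition: their G+C content was 59.7 to 68.7%, against a median of 51.7% over all promoters, and they held 21 to 29 CpG, against a median of 7.

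Pdha1 encodes the catalytic alpha subunit of pyruvate dehydrogenase, the enzyme that makes acetyl-CoA from pyruvate. Its log2 level was 8.63, 8.61 and 8.61 in castrated rats, 7.88, 8.55 and 8.69 in estradiol rats and 8.62, 8.46 and 8.66 in combined rats, against 8.90, 8.94 and 8.88 in control rats. All 9 treated arrays were below control, and the 3 castrated arrays were nearly equal. The log2 difference from control was -0.29 ± 0.19 (SE) after castration, -0.53 ± 0.19 after estradiol and -0.33 ± 0.19 after both. None passed (adjusted p = 0.552, 0.0865 and 0.509, in that order), and with estradiol array 3 alone the estradiol difference was -0.22. A second probe set of Pdha1 gave differences of -0.30, -0.55 and -0.31.

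Got2 encodes the mitochondrial aspartate aminotransferase, which turns aspartate into oxaloacetate. Log2 levels were 10.20, 9.98 and 10.22 in castrated rats, 10.44, 9.57 and 10.47 in estradiol rats and 10.17, 10.09 and 9.83 in combined rats, against 10.19, 10.38 and 9.89 in control rats. Every treated group overlapped control, and the lowest value of all was estradiol array 2. The differences from control were -0.02, 0.01 and -0.12 log2 after castration, estradiol and both, each with an SE of 0.23, and with estradiol array 3 alone the estradiol difference was 0.32.

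Cs encodes citrate synthase, the enzyme that forms citrate. Its log2 level was 9.69, 9.28 and 9.70 in castrated rats, 9.18, 9.41 and 9.55 in estradiol rats and 9.52, 9.31 and 9.37 in combined rats, against 9.56, 9.70 and 9.72 in control rats. Estradiol and combined arrays were all below the control arrays, while castrated arrays overlapped them. The log2 differences of -0.11 ± 0.16 after castration, -0.28 ± 0.16 after estradiol and -0.26 ± 0.16 after both did not pass (adjusted p = 0.901, 0.242 and 0.566). For estradiol the 95% interval ran from -0.62 to 0.07, and array 3 alone gave -0.11. A second, dimmer probe set gave -0.18, -0.14 and -0.16.

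Slc25a1 encodes the citrate carrier of the inner mitochondrial membrane, which passes citrate to the cytosol. Across the arrays its log2 level was 8.18, 7.92 and 7.91 in castrated rats, 8.36, 8.23 and 7.89 in estradiol rats and 7.99, 8.01 and 7.94 in combined rats, against 8.10, 8.24 and 8.18 in control rats. Only the combined arrays lay wholly below control. The estradiol difference was -0.01 ± 0.15, with a 95% interval of -0.34 to 0.32, but its 3 arrays were spread to both sides of control, with array 3 alone at -0.29 from the control mean. The differences after castration (-0.17 ± 0.15) and after both (-0.19 ± 0.15) did not pass (adjusted p = 0.753 and 0.740). For castration, estradiol and both, a second, dimmer probe set gave -0.005, 0.03 and -0.04.

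Aco1 encodes the cytosolic aconitase, which isomerizes citrate outside the mitochondrion and, without its iron-sulfur cluster, binds iron-responsive RNA elements. On the log2 scale it lay at 9.31, 9.14 and 9.17 in castrated rats, 8.27, 8.81 and 9.27 in estradiol rats and 9.29, 9.10 and 8.93 in combined rats, against 9.05, 9.16 and 9.13 in control rats. Every treated group overlapped control, with estradiol arrays 1 and 2 below all others and array 3 above all controls. The estradiol difference was -0.33 ± 0.21 over 3 arrays (adjusted p = 0.287) and 0.16 with array 3 alone. After castration and after both it was 0.09 and -0.01 log2.

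Idh3a encodes the catalytic alpha subunit of the NAD-dependent isocitrate dehydrogenase, a regulated step of the cycle, and was the gene with the highest difference above control. The arrays gave log2 levels of 7.96, 8.46 and 7.94 in castrated rats, 7.74, 7.39 and 7.85 in estradiol rats and 7.86, 7.92 and 7.94 in combined rats, against 7.57, 7.68 and 7.65 in control rats. All castrated and combined arrays were above all control arrays, and the estradiol arrays lay on both sides of them, at 0.02 from the control mean over 3 arrays and 0.21 with array 3 alone. The difference after castration was 0.48 ± 0.17, with a 95% interval of 0.11 to 0.86, and did not pass after adjustment (adjusted p = 0.144). Without estradiol arrays 1 and 2 in the fit the same difference passed (adjusted p = 0.0307). After both treatments it was 0.27 ± 0.17 (adjusted p = 0.583), and estradiol against castrated gave -0.46 (adjusted p = 0.149).

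Ogdh encodes the E1 subunit of the 2-oxoglutarate dehydrogenase complex, which makes succinyl-CoA. Its log2 level was 9.86, 9.24 and 9.79 in castrated rats, 8.55, 9.13 and 9.63 in estradiol rats and 9.70, 9.51 and 9.58 in combined rats, against 9.98, 9.96 and 10.08 in control rats. All 9 treated arrays were below control, and estradiol arrays 1 and 2 held the lowest values. After estradiol Ogdh fell by 0.90 ± 0.24 on the log2 scale (95% interval -1.42 to -0.39, adjusted p = 0.0365), and without arrays 1 and 2 the difference was -0.38 (adjusted p = 0.403). The call was also lost without control array 1, 2 or 3 (adjusted p = 0.104, 0.106 and 0.116), estradiol array 1 or 2 (0.0651 and 0.0675), castrated array 3 (0.0508) or combined array 1, 2 or 3 (0.0565, 0.0549 and 0.0560), though the difference stayed below 0 in each. After castration it was -0.38 ± 0.24 and after both -0.41 ± 0.24, and neither passed (adjusted p = 0.534 and 0.523).

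Sdhb encodes the iron-sulfur subunit of succinate dehydrogenase, which also serves as complex II of the respiratory chain. Log2 levels were 8.16, 8.14 and 8.14 in castrated rats, 8.20, 7.43 and 8.11 in estradiol rats and 8.24, 8.07 and 8.05 in combined rats, against 8.002, 7.99 and 8.10 in control rats. The castrated arrays lay just above control, the combined arrays overlapped it, and estradiol array 2 was the lowest of all. The differences were 0.12 ± 0.18 after castration, -0.12 ± 0.18 after estradiol and 0.09 ± 0.18 after both (adjusted p = 0.913, 0.662 and 0.961), and with estradiol array 3 alone the estradiol difference was 0.08.

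Mdh2 encodes the mitochondrial malate dehydrogenase, which closes the cycle by forming oxaloacetate. Its level, on the log2 scale, was 10.86, 10.39 and 10.67 in castrated rats, 10.54, 10.43 and 10.82 in estradiol rats and 10.81, 10.84 and 10.53 in combined rats, against 10.95, 11.06 and 11.15 in control rats. All 9 treated arrays were below control, estradiol array 3 included. The log2 difference was -0.41 ± 0.17 after castration (95% interval -0.78 to -0.05), -0.45 ± 0.17 after estradiol (-0.82 to -0.09) and -0.32 ± 0.17 after both. Adjusted over all genes these did not pass (adjusted p = 0.221, 0.1004 and 0.430), and with estradiol array 3 alone the estradiol difference was -0.23.

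Read as a group, most of the 9 differences were below 0 in each treated group, with no call beyond Ogdh. Differences below 0 numbered 6 of 9 after castration, 7 of 9 after estradiol and 7 of 9 after both, with median log2 differences of -0.11, -0.28 and -0.19, against 0.01, 0.07 and 0.04 over all genes. Without estradiol arrays 1 and 2 the estradiol median was -0.11, against 0.02 over all genes, with 5 of 9 below 0. The estradiol median also moved with the scaling, to -0.04 with 5 of 9 below 0 under quantile normalization and to -0.40 with 9 of 9 below 0 after centring array medians. Over all genes 48.4%, 43.3% and 43.3% of differences were below 0 after castration, estradiol and both. The 3 comparisons share the control arrays, so these counts are not separate observations. The plot of differences shows them with their intervals.

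**Figure D2:**
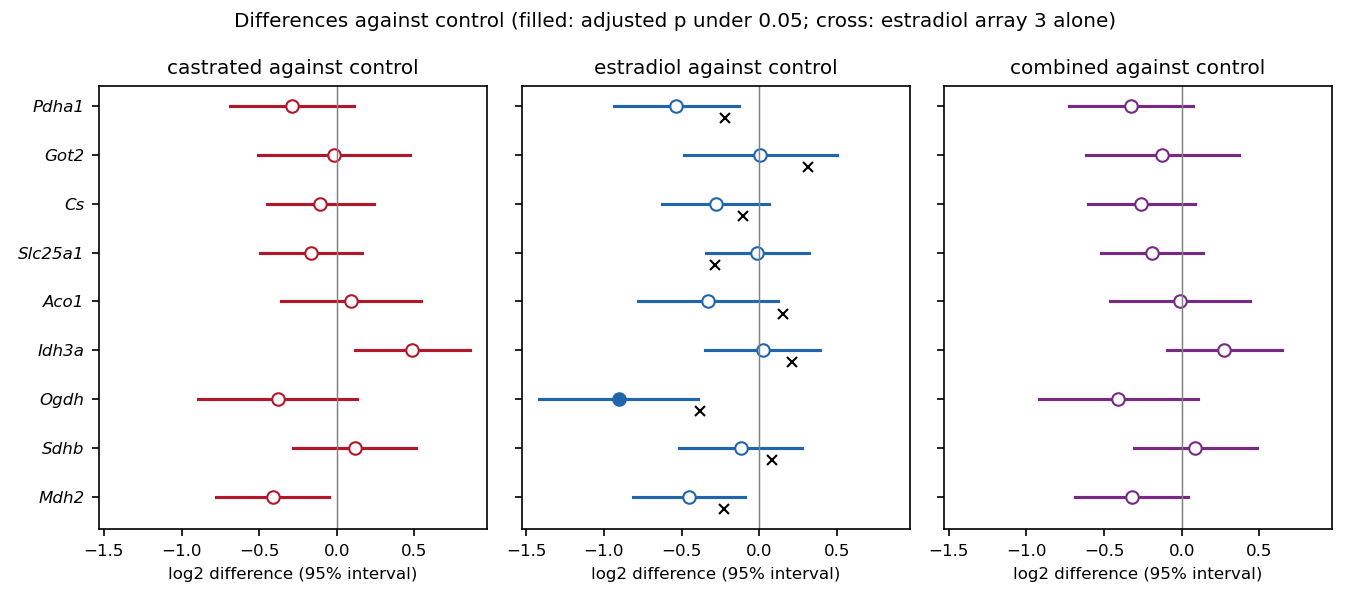
Log2 difference from control (horizontal axis) with its 95% interval for each of the 9 genes after castration, estradiol and both. The filled circle is the difference with an adjusted p under 0.05, Ogdh after estradiol at -0.90, and crosses give estradiol array 3 alone, where Ogdh is at -0.38 and Got2 at 0.32.

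Castration alone gave no call among the 9 genes, while 5.54% of all genes passed. Unadjusted p was under 0.05 for Idh3a and Mdh2, 2 of 9 genes, against 16.1% of all genes. Castrated arrays were wholly below control for 3 of the 9 genes (13.7% of all genes) and wholly above for Idh3a and Sdhb, 2 of 9 (18.8%). Estradiol gave 1 call of 9, Ogdh, against 7.99% of all genes in either direction and 5.48% falling. Unadjusted p was under 0.05 for Ogdh, Pdha1 and Mdh2, against 30.2% of all genes. Estradiol arrays were wholly below control for Pdha1, Ogdh, Mdh2 and Cs, 4 of 9 (15.1%), and wholly above for 0 (12.3%). The combined treatment gave 0 calls of 9 against 4.32% of all genes, and 0 at an unadjusted p under 0.05 against 14.7%. Combined arrays were wholly below control for Pdha1, Ogdh, Mdh2, Cs and Slc25a1, 5 of 9 (15.8%), and wholly above for Idh3a, 1 of 9 (21.1%).

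Refitting without estradiol arrays 1 and 2 changed which genes passed. Idh3a then passed after castration, 1 of 9 against 16.6% of all genes, and none passed after estradiol (5.05% of all genes). Pdha1 passed after both treatments (log2 difference -0.33, adjusted p = 0.0376), 1 of 9 against 14.5%. Leaving out estradiol array 3 instead gave 4 calls after estradiol: Aco1 (-0.57), Pdha1 (-0.69), Mdh2 (-0.57) and Ogdh, 4 of 9 against 36.7% of all genes in the same refit.

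Between treatments no citrate gene passed. Combined against castrated gave log2 differences of -0.21 to 0.09, with 0 calls over all genes (0%, limma), and 1.05% of genes and 0 of the 9 at an unadjusted p under 0.05. Combined against estradiol gave 0 calls over all genes, and 18.9% of genes and 0 of the 9 at an unadjusted p under 0.05. The widest of these was Ogdh, 0.50 higher in combined rats (adjusted p = 0.270), which passed without estradiol array 3 (0.76, adjusted p = 0.0230), as did Aco1 (0.56, adjusted p = 0.0325), 2 of 9 against 28.6% of all genes. Without estradiol arrays 1 and 2 the same differences were -0.03 for Ogdh and -0.16 for Aco1, and neither passed (adjusted p = 0.999 for both). Estradiol against castrated gave 0 calls over all genes, and 27.3% of genes at an unadjusted p under 0.05, with Idh3a and Ogdh among them. Without estradiol array 3, Ogdh (-0.79), Aco1 (-0.66) and Idh3a (-0.55) passed in that comparison, 3 of 9 against 37.3% of all genes. Without estradiol arrays 1 and 2 they were -0.0019 for Ogdh, 0.06 for Aco1 and -0.27 for Idh3a, and 0 of the 9 passed.

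Whether estradiol acted alike in castrated and intact rats was tested as an interaction. The estradiol difference of Ogdh was 0.88 ± 0.34 higher in castrated than in intact rats and that of Mdh2 was 0.54 ± 0.24 higher. Unadjusted p was 0.0214 and 0.0389, 2 of 9 genes against 14.2% of all genes. Neither passed after adjustment (adjusted p = 0.267 and 0.330), while 1.10% of all genes did, and without estradiol array 3 the interaction of Ogdh passed (1.14, adjusted p = 0.0281), 1 of 9 against 11.6% of all genes. Without estradiol arrays 1 and 2 it was 0.35 for Ogdh (adjusted p = 0.579) and 0.32 for Mdh2 (adjusted p = 0.582). A test of any difference among the 4 groups passed for 5.47% of all genes and for 0 of the 9, with Ogdh nearest (adjusted p = 0.131), and for 2 of the 9 without estradiol array 3, against 34.1% of all genes. Genes of like pattern were to be named only for a gene that passed, so none are.

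The wider pathway was counted over a list of 46 other genes of pyruvate entry, aspartate supply, citrate transport and use, citrate oxidation and the rest of the cycle, of which 41 were measured. The others on the list were not analysed here. After castration 1 of 41 rose and 0 fell, where 5.54% of all genes were called. When only castrated and control arrays were fitted, 4 rose and 3 fell, and 1872 of all 14506 genes were called. With arrays weighted by quality, 9 rose and 4 fell after castration, and 3788 of all 14506 genes were called. After estradiol 0 rose and 5 fell, against 5.48% of all genes falling, and 4 of the 5 were among the 13 genes of pyruvate entry. The estradiol count was 10 when arrays were weighted by quality, 1 under quantile normalization and 0 when only estradiol and control arrays were fitted. Over 21 alternatives, 197 to 5329 of all 14506 genes were called after estradiol. After both 1 rose and 0 fell, and the number called ran from 0 to 14 over 21 alternatives. Of all 14506 genes, those alternatives called 265 to 4134 after both. The median log2 difference over the 41 was 0.04 after castration, -0.26 after estradiol and -0.04 after both, and the estradiol median without arrays 1 and 2 was -0.01.

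Idh1, the cytosolic NADP-dependent isocitrate dehydrogenase, was the gene that rose in the fit of all 12 arrays without weights or other changes. The arrays gave log2 levels of 10.08, 10.44 and 10.03 in castrated rats, 9.68, 9.58 and 9.84 in estradiol rats and 9.95, 9.95 and 10.08 in combined rats, against 9.33, 9.27 and 9.54 in control rats. All 9 treated arrays were above control. Idh1 rose by 0.80 log2 after castration (adjusted p = 0.00791) and by 0.61 after both (adjusted p = 0.0405), where 3.17% and 2.12% of all genes rose. The first call was lost only without control array 2 (adjusted p = 0.0532), and the second was kept in 10 of 21 refits and lost with a replicate block (adjusted p = 0.0582).

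The genes that fell after estradiol bring pyruvate into the mitochondrion or turn it into acetyl-CoA, except Me1, the cytosolic malic enzyme. Mpc1 and Mpc2 form the mitochondrial pyruvate carrier. Mpc1 had log2 levels of 6.21, 6.60 and 7.09 in estradiol rats against 7.42, 7.57 and 7.38 in control rats, a fall of 0.82 (adjusted p = 0.0201). Mpc2 had 6.53, 7.25 and 7.11 against 8.03, 7.68 and 7.64, also a fall of 0.82 (adjusted p = 0.0375). No estradiol array of either gene reached the control arrays. Pdhb, the beta subunit that pairs with Pdha1, had log2 levels of 7.22, 7.40 and 7.89 in estradiol rats against 8.14, 8.01 and 8.19 in control rats, a fall of 0.61 (adjusted p = 0.0496). Pdhx, which anchors a further subunit of that complex, had 7.77, 8.04 and 8.12 against 8.55, 8.82 and 8.76, a fall of 0.73 (adjusted p = 0.0227). Here too the groups did not overlap, and castrated and combined arrays of Mpc1, Pdhb and Pdhx were also all below control. Of the 41 genes, 4 were below control on all 9 treated arrays (7.27% of all genes) and 2 above (4.63%). Me1 had 7.40, 9.14 and 8.84 in estradiol rats against 9.62, 9.86 and 9.93 in control rats, a fall of 1.34 (adjusted p = 0.0468), with array 1 far below the other 2.

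Leaving out single arrays moved these counts. After castration, 0 of the 41 genes were called without control array 2 (2.49% of all genes) and 2 without castrated array 2 (4.15%). Without estradiol array 1, 2 or 3, 5, 2 and 4 were called, against 12.3%, 6.67% and 7.85% of all genes. After both, 0 were called without any single control or combined array or castrated array 1 or 3. Without estradiol array 1 or 3, 4 and 3 were called, against 10.2% and 6.20% of all genes. After estradiol, 0 were called without estradiol arrays 1 and 2 together, where the differences were -0.37 for Mpc1, -0.67 for Mpc2, -0.22 for Pdhb, -0.59 for Pdhx and -0.97 for Me1. There, 1, 0 and 0 were called without control array 1, 2 or 3, 2 and 3 without castrated array 1 or 3, and 3 without estradiol array 1. Without combined array 1, 2 or 3 the counts were 3, 2 and 3, and without estradiol array 3 the count was 17 of 41, against 36.7% of all genes. Over the 12 refits without a single array, the share of all genes called was 2.49 to 12.3% after castration, 2.69 to 36.7% after estradiol and 1.83 to 10.2% after both. Of 21 refits, Mpc1 and Pdhx passed in 16 each, Mpc2 in 10, Me1 in 9 and Pdhb in 5.

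In the roles with no call, the gene with the smallest p in the test over all groups was taken. For aspartate supply this was Got1, the cytosolic aspartate aminotransferase, which was below control on all 9 treated arrays (6.01 to 6.997 against 7.07 to 7.26, adjusted p = 0.213). For the rest of the cycle it was Me2, the mitochondrial malic enzyme, 1.25 log2 higher after castration (adjusted p = 0.0872). Beside them Suclg1, a succinyl-CoA synthetase subunit, chosen after its values were seen, lay above control on all 9 treated arrays (8.75 to 9.41 against 8.55 to 8.64). The plot of the 41 other genes gives each difference by role.

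**Figure D3:**
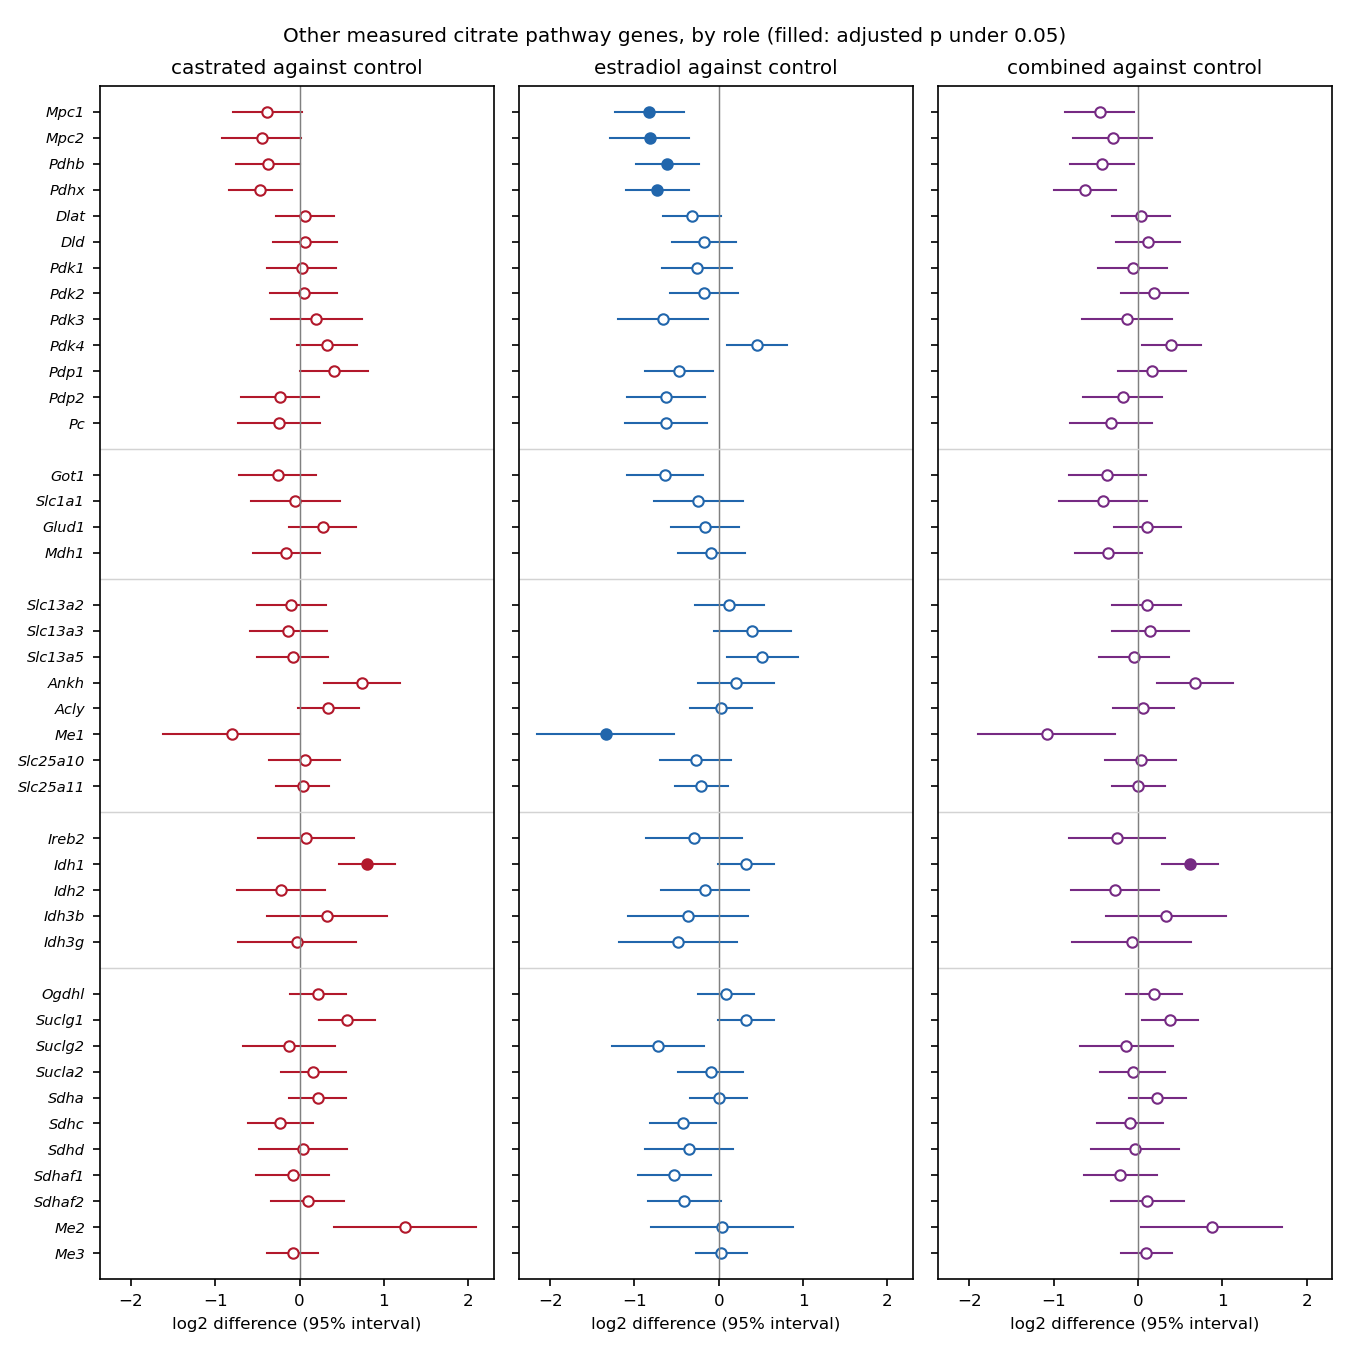
Log2 difference from control (horizontal axis) with its 95% interval for the 41 other measured pathway genes, grouped by role down the page, after castration, estradiol and both. Filled circles passed at an adjusted p under 0.05: Idh1 after castration (0.80) and after both (0.61), and Mpc1, Mpc2, Pdhb, Pdhx and Me1 after estradiol.

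**Figure D4:**
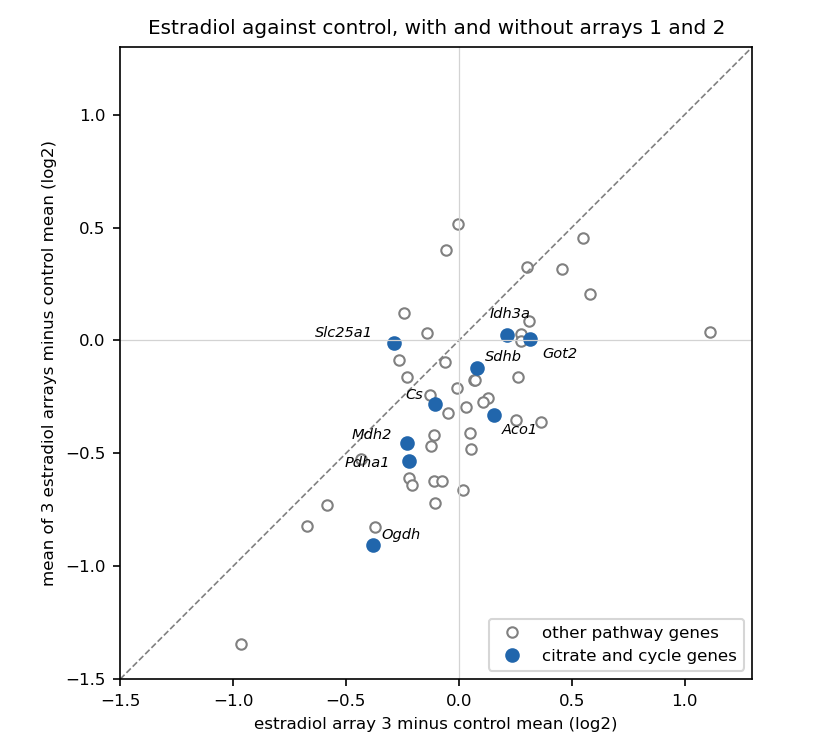
Mean log2 difference of the 3 estradiol arrays from control (vertical axis) against that of estradiol array 3 alone (horizontal axis), for the 9 citrate genes (filled) and 41 other pathway genes (open). The axes share array 3 and the control arrays, and the dashed line marks equal values; Ogdh lies at -0.90 against -0.38 and Aco1 at -0.33 against 0.16.

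The plot of estradiol arrays places 8 of the 9 citrate genes and 34 of the 41 others below the line of equal values, which is where the mean of arrays 1 and 2 was lower than array 3. Slc25a1 was the citrate gene above the line, with -0.01 over 3 arrays and -0.29 for array 3. The share of all genes below the line is not given here, so these counts do not set the pathway apart from other genes.

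Cell type markers moved between groups as well, and their part in the differences above was not tested. The summed level of 14 macrophage markers (14 measured) was 12.30 to 12.97 log2 in castrated rats, 11.18 to 12.50 in estradiol rats and 11.99 to 12.48 in combined rats, against 10.99 to 11.35 in control rats, and 10, 3 and 6 of them rose, in that order of groups. The summed level of 6 of 8 luminal epithelial markers, such as Krt8 and Krt18, was 13.60 to 13.77, 13.20 to 13.38 and 13.47 to 13.66, against 12.87 to 13.04 in control rats. This sum was above control in each treated group, and its relation to the citrate genes was not tested. Of the 6, 4, 3 and 4 rose while 0, 1 and 0 fell. Hoxb13, on the same list, was below control on every treated array, at 9.66 to 10.65 against 10.83 to 11.00. Cdh1 lay at 10.09, 10.86 and 11.06 in estradiol rats, against 10.85 to 10.96 in control rats. In endothelium, 7 of 8 markers were measured and summed to 8.81 to 9.07 in estradiol rats, against 9.31 to 9.62 in control rats. Of these, 2 fell after estradiol. The summed level of 8 fibroblast and matrix markers (8 measured) was 11.15 to 11.62 in estradiol rats, against 11.86 to 12.12 in control rats, with 0 falling. Smooth muscle markers (9 of 9 measured) summed to 12.04 to 12.54 in estradiol rats, against 12.78 to 13.01 in control rats, and 1 fell. Lymphocyte markers (7 of 9 measured) summed to 7.54 to 8.05 in estradiol rats, against 7.33 to 7.40 in control rats, and 2 rose. The joint list for skeletal muscle, adipocytes and blood (11 of 12 measured) summed to 9.40 to 10.01 in estradiol rats. Castrated (9.59 to 10.22) and combined rats (9.75 to 10.06) were also below control (10.23 to 10.63), and 1 marker fell, after estradiol. Lymphocyte sums were above control in combined rats too, at 7.43 to 7.53. Fibroblast and matrix sums were above control in castrated rats, at 12.14 to 12.42. Basal epithelial markers (4 of 6 measured) summed to 10.80 to 11.14 in combined rats, against 9.78 to 10.32 in control rats. Castrated and estradiol sums of that list overlapped control.

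The secretory markers of the ventral prostate, 6 of 6 measured, were lower in sum on every treated array, but not gene by gene. Their summed level was 12.77 to 13.28 log2 in castrated rats, 12.70 to 13.45 in estradiol rats and 13.15 to 13.38 in combined rats, against 13.99 to 14.08 in control rats. After castration, estradiol and both, 2, 2 and 1 of them fell and 1, 0 and 1 rose. The median log2 differences of the 6 were -0.15, 0.19 and -0.18, in that order. Pbsn fell in each treated group, Andpro fell after castration and after estradiol, and Azgp1 rose after castration and after both. Scgb2a1 lay at 12.46 to 12.73 on treated arrays, below the 12.84 to 12.88 of the control arrays. Spink1l, the dimmest of the list, lay at 2.89 and 3.57 on estradiol arrays 1 and 2, against 1.83 to 2.71 elsewhere. Msmb was high on estradiol array 3 alone, at 8.47.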

How the data were processed

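Total RNA (500 ng from 30 mg of ventral prostate) was hybridized to Affymetrix arrays, 12 in all, which were processed with Affymetrix Expression Console, per the submitters' processing notes. The authors deposited 1 log2 expression level for each probe set on each array. That base was read from the range of the values, since the sources used here give neither it, nor the normalization, nor a genome build. The number of arrays limits the precision.

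Of 29214 probe sets, 15310 had 1 gene symbol, 323 several and 13581 none. The 14506 genes were fitted together with limma 3.58.1 (R 4.3.3) over 4 groups, with 8 residual degrees of freedom, moderated variances and Benjamini-Hochberg adjustment over all genes, two-sided; a gene was called at an adjusted p under 0.05. The code was tested on simulated data. Alternatives changed the scaling, a filter on dim genes, the probe sets, the arrays compared, array weights, a replicate block and each array in turn. Figures were drawn with matplotlib 3.10.9. Promoters came from a RefSeq table (GRCr8). Marker lists were summed on the linear scale.

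Every citrate gene is named. Of the other pathway genes, those that passed against control are named, or, in a role with none, the gene with the smallest p over all groups; Suclg1 was added after its values were seen. The genes and lists were chosen with earlier results of these data known.

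Replicate numbers were not taken to pair the arrays, as the labels name no pairing. Deviations from group means of same-numbered arrays correlated at -0.16 to 0.28 (median 0.07), and 7 of 18 pairs were over 0.1. Among them were the 3 of castrated with estradiol arrays (0.14, 0.28 and 0.20). Arrays of different number correlated at -0.25 to 0.28 (median -0.02), with 6 of 36 over 0.1, a smaller share. A fit with a replicate block is therefore given below.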

Additional observations from a re-analysis of the deposited data

How the results depend on the processing

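The number of citrate genes called was recomputed under 21 alternatives (20 for the interaction and for the test over all groups, which could not be run on only the compared arrays). After castration it was 0, with 1 without estradiol replicates 1 and 2, 3 with array quality weights (Pdha1, Idh3a and Mdh2) and 0 whichever array was left out. After estradiol it was 1, with 0 under quantile normalization, 0 on only the compared arrays and 0 without estradiol replicates 1 and 2, and 0 to 4 on leaving out each array. After both it was 0, with 3 on only the compared arrays (Pdha1, Idh3a and Ogdh), 1 without estradiol replicates 1 and 2, 3 with array quality weights (Pdha1, Ogdh and Mdh2), and 0 whichever array was left out. Combined against castrated gave 0 throughout. Leaving out each array gave 0 to 2 for combined against estradiol, 0 to 3 for estradiol against castrated and 0 to 1 for the interaction. For the test over all groups it gave 0 to 2, and array quality weights gave 4. The share of all genes in that weighted test is not given here, so the 4 cannot be set against it.

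Over all genes, the alternatives gave 361 to 3788 calls after castration (803), 197 to 5329 after estradiol (1159), 265 to 4134 after both (627) and 63 to 1684 for the interaction (159). Of 1314 recomputed differences of single citrate genes, 12 lost a call, all of them Ogdh after estradiol, 20 gained one, 90 had another sign with no call on either side, and 0 called differences changed sign. Centring array medians shifted the estradiol median of all genes by -0.12 log2 and put 9 of 9 citrate genes below control, whereas quantile normalization put 5 of 9 below. With a replicate block the citrate genes called were 0, 1 and 0 after castration, estradiol and both, and 825, 1255 and 651 genes in all, so the block changed no call among the citrate genes. Of the other pathway genes, 1, 4 and 0 were called with the block, and the calls lost were Pdhb after estradiol (adjusted p = 0.0590) and Idh1 after both. For estradiol against castrated, the one comparison whose same-numbered arrays all correlated over 0.1, the block gave 0 calls over all genes. The cause of these changes was not tested.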
